A study of Mus musculus with 6 samples.

Results

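The genes described here are 28 genes of cholesterol synthesis, of its control by sterol regulatory element-binding proteins (SREBPs), and of sterol transport. They were chosen by name, with earlier results of these data known, and their probes were found by symbol in the scanner tables of 6 bead arrays. Of the 28, 26 had a probe and 21 were bright enough to be tested, among 11940 genes tested in all. Hmgcs1 and Fdft1 had no probe under these names, and Mvk, Idi1, Sc5d, Abca1 and Abcg1 were too dim. The arrays carried RNA of isolated luminal epithelium from the uterus, taken 3.5 days after mating, with 3 samples a group. CKO samples (replicates D, E and F) came from Alk3flox/flox Pgrcre/+ females. In these, Cre knocked into 1 allele of the progesterone receptor gene (Pgr) removes part of the BMP receptor gene Alk3, also called Bmpr1a, in any cell that expresses Pgr. Control samples (replicates A, B and C) are labelled only as controls, and the labels do not say whether they carried a floxed allele or Cre. All mice had a mixed C57BL/6J and 129S5/SvEvBrd background. The comparison asked how the epithelium differs, around the time when the embryo attaches, when this receptor gene is targeted in Pgr-expressing cells.

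Cells make cholesterol from acetyl-CoA by way of mevalonate, isoprenoids, squalene and lanosterol. When the endoplasmic reticulum runs low in sterol, Scap escorts the SREBP precursors to the Golgi for cleavage, and the released factors turn on nearly every gene of the route. The Insig proteins hold Scap back when sterol is plentiful, and Insig1 is itself an SREBP target. The luminal epithelium, which the embryo touches first, remodels its surface membrane at this stage, and cholesterol is a main lipid of that membrane.

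In short windows around the start sites, most of these genes held a CCAAT box, the element bound by NF-Y, a factor that works beside SREBPs. RefSeq promoter windows (GRCm38.p6, 250 bases before to 50 after a start) were present for 22 of the 28 genes, and Fdps, Fdft1, Sqle, Stard4, Npc1 and Abcg1 had none. The letters CCAAT, on either strand, occurred in 14 of 15 enzyme genes and in 19 of all 22, against 41.1% of 27025 genes. An exact match to TCACNCCAC, a form of the sterol regulatory element, occurred in 1 of the 22, that of Hmgcs1, against 1.44% of genes. Near matches were not searched, so windows without a match may still hold such an element. The E-box CACGTG occurred in 6, against 8.09% of genes. Each motif was searched on its own, so matches of different motifs may share bases, and a match is a description of the window only. The windows below belong to the SREBP gene and the enzyme genes that stood highest in CKO among those with a window, and to Insig1, which lay on the other side. They are shown because the values that follow turn on these genes. Capitals mark CCAAT or its reverse complement.
Srebf2, chr15:82147019-82147318, plus strand: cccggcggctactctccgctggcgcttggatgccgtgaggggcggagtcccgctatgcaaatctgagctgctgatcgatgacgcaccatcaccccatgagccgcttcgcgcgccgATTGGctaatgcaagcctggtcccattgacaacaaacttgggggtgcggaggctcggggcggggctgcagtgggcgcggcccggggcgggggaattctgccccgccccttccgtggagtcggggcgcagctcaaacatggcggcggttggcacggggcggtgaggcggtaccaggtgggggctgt
Lss, chr10:76531355-76531654, plus strand: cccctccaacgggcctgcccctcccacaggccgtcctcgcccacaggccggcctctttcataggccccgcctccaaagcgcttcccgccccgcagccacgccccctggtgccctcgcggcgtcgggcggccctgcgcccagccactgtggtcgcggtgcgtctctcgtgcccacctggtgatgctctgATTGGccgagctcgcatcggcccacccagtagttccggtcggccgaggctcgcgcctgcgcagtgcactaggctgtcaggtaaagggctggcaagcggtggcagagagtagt
Cyp51, chr5:4104648-4104947, minus strand: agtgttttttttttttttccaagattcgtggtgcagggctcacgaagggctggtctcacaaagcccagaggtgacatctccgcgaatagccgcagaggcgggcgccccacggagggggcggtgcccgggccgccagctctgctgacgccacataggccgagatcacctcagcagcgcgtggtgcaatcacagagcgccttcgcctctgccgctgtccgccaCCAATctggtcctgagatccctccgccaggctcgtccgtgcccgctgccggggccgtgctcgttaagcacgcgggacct
Sc4mol, chr8:64733529-64733828, minus strand: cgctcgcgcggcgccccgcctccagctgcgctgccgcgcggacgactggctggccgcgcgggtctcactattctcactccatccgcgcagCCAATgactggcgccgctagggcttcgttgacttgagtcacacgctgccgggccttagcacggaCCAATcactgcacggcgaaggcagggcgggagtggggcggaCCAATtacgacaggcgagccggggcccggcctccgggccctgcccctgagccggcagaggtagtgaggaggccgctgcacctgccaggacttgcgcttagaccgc
Hsd17b7, chr1:169969156-169969455, minus strand: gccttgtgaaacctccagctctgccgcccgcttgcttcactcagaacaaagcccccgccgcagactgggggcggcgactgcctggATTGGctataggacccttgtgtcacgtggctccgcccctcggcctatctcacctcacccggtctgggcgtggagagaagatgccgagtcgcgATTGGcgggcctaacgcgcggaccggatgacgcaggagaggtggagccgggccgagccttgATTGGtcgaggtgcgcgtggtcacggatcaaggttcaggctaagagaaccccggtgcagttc
Insig1, chr5:28071162-28071461, plus strand: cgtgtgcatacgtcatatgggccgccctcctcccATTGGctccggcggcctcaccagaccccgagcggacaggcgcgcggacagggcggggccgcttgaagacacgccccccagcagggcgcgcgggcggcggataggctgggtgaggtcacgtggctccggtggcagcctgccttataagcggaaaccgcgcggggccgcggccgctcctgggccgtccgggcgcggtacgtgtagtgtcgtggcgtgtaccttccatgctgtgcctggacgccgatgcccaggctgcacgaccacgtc
Each of the 6 windows held at least 1 CCAAT box. Those of Sc4mol and Hsd17b7 held 3 each. The enzyme gene next in difference after Lss, Acat2 (0.47), is not shown and held none. Enzyme genes lower on average in CKO held the box too, with 4 in Nsdhl, 2 in Ebp and 1 in Tm7sf2. The box therefore did not set the higher genes apart.

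No member passed the test between CKO and Control. Genes at an adjusted p under 0.05 (limma, Benjamini-Hochberg over all genes) numbered 0 of 21 members, against 0.0168% of all genes, and the members' adjusted p ran from 0.976 to 0.992. At an unadjusted p under 0.05 there were 4 of 21 (Srebf2, Lss, Srebf1 and Sqle, all higher in CKO), against 4.72% of all genes in either direction and 2.71% for higher in CKO. The groups did not overlap for 3 of 21 members, all higher in CKO, against 5.64% of all genes that were higher without overlap. None was lower without overlap, against 5.01%. The difference was above 0 for 15 of 21, against 48.3% of all genes. The median log2 difference was 0.24 over the members and -0.01 over all genes. Since the list was chosen with earlier results of these data known, these shares and medians are descriptions only. With CKO replicate E left out, the members' median was 0.11. Nothing in the labels ties an array to its own animal, so the p-values cover only the spread of these 6 samples, which may be technical.

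**Figure D1:**
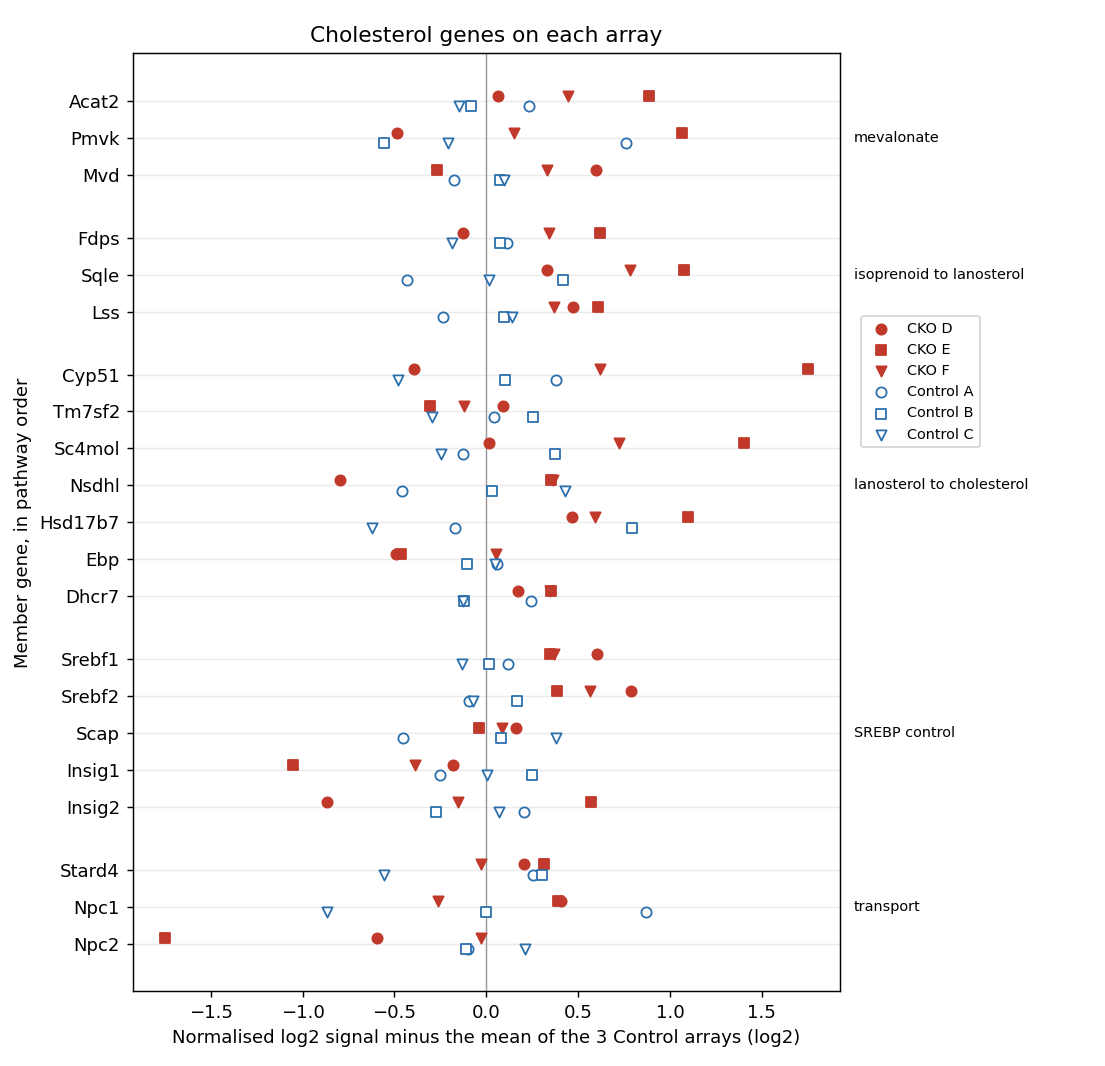
Normalised log2 signal of the 21 tested members on each array, minus the mean of the 3 Control arrays (x axis, log2), in pathway order down the page. Filled red symbols are CKO arrays and open blue symbols Control arrays. For Lss, Srebf1 and Srebf2 all 3 CKO arrays lie right of all 3 Control arrays, and CKO array E lies far right for Cyp51 and Sc4mol and far left for Npc2.

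Control of the route is described first. Srebf2 encodes the SREBP that mainly drives cholesterol genes. Its normalised log2 signal was 9.27, 8.87 and 9.05 on CKO arrays D, E and F, against 8.39, 8.65 and 8.41 on Control arrays A, B and C. Every CKO array lay above every Control array. The means were 9.06 ± 0.20 in CKO and 8.48 ± 0.15 in Control (SD, n = 3 each), a difference of 0.58 (SE 0.18, 95% confidence interval 0.14 to 1.01, limma adjusted p 0.976). A dimmer Srebf2 probe, above background on all arrays, gave 6.93, 6.42 and 6.56 in CKO against 6.38, 6.42 and 6.06 in Control. On that probe the groups met at arrays E and B, and the difference was 0.35.

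Srebf1, whose products act mostly on fatty acid genes, gave 6.26, 6.00 and 6.03 on the CKO arrays, against 5.77, 5.67 and 5.52 on the Control arrays. These groups did not overlap either, and they differed by 0.44 (SE 0.17, confidence interval 0.04 to 0.84, limma adjusted p 0.976). The probe is dim, its difference was 0.22 with no background correction, and the other Srebf1 probe was below background on all 6 arrays.

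Insig1, the retention factor that SREBPs also turn on, stood the other way. It gave 6.25, 5.38 and 6.04 in CKO, against 6.18, 6.68 and 6.43 in Control. Array E was the lowest of the 6, E and F lay below every Control array, and D lay above Control A, so the groups overlapped. The difference was -0.54 (SE 0.27, confidence interval -1.20 to 0.12, limma adjusted p 0.976), and -0.28 both without CKO replicate E and with no background correction. A second probe, above background on 5 arrays, differed by -0.37, and 2 more were below background throughout.

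Scap, the escort protein, gave 7.77, 7.57 and 7.70 in CKO and 7.16, 7.69 and 7.99 in Control, a difference of 0.07. All CKO values lay inside the Control range. Insig2, the second retention factor, gave 7.62, 9.06 and 8.33 in CKO, against 8.69, 8.21 and 8.55 in Control, a difference of -0.15. CKO arrays held both its lowest value, on D, and its highest, on E. Its other bright probe had the same order within CKO (6.77, 8.39 and 7.76) but a difference of 0.35, so the direction for Insig2 depends on the probe.

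**Figure D2:**
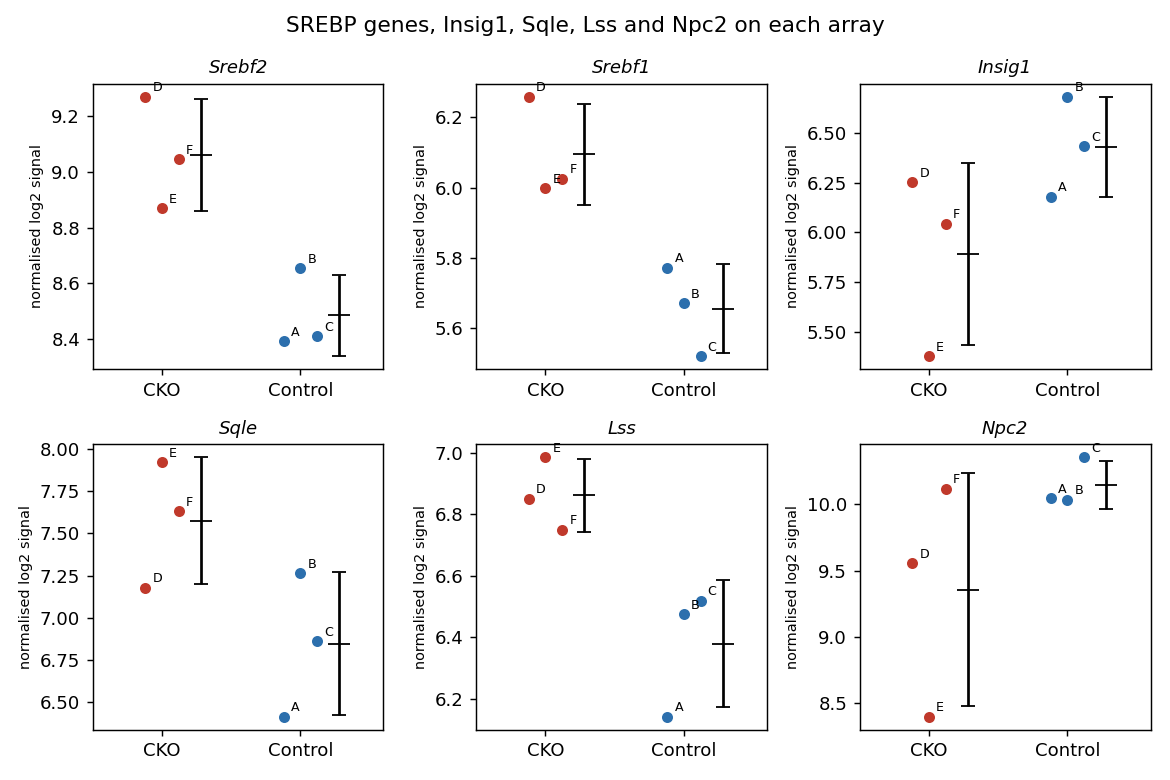
Normalised log2 signal (y axis, a separate scale in each panel) of Srebf2, Srebf1, Insig1, Sqle, Lss and Npc2, with CKO left and Control right. Letters name the arrays and bars show the mean and SD of 3 arrays. The groups are apart for Srebf2, Srebf1 and Lss, while Sqle, Insig1 and Npc2 overlap.

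From acetyl-CoA to mevalonate products, all 3 tested enzymes were higher on average in CKO, each with overlapping groups. Acat2, which joins acetyl-CoA units in the cytosol, gave 7.93, 8.75 and 8.31 in CKO, against 8.10, 7.78 and 7.71 in Control. Arrays E and F lay above every Control array and D inside their range (difference 0.47, SE 0.25, and 0.26 without CKO replicate E). Acat3, a related neighbouring gene, may share signal with this probe, which was not tested. Pmvk, phosphomevalonate kinase, gave 9.05, 10.60 and 9.68 in CKO, against 10.29, 8.97 and 9.32 in Control. Both groups spread over more than 1 log2 unit, so the difference of 0.24 (SE 0.49) is small beside the spread. Mvd, mevalonate diphosphate decarboxylase, gave 7.15, 6.28 and 6.88 in CKO, against 6.38, 6.62 and 6.65 in Control. Here array E was the lowest of the 6 and D the highest (difference 0.22, SE 0.25). Without CKO replicate D the Mvd difference was 0.028, without CKO replicate E 0.47 and without Control replicate A 0.13. Mvk, mevalonate kinase, was above background on 1 CKO and 1 Control array. A probe that the files name as a predicted locus similar to Hmgcs1 was not counted as a member, and was looked at after the other values. It gave 12.04, 11.76 and 11.79 in CKO and 11.65, 11.99 and 11.94 in Control, with no separation of the groups.

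From isoprenoids to lanosterol, all 3 tested enzymes were higher on average in CKO. Fdps, farnesyl diphosphate synthase, gave 11.12, 11.87 and 11.59 in CKO, against 11.36, 11.32 and 11.06 in Control. Arrays E and F lay above all Control arrays (difference 0.28, SE 0.23). The Fdps difference was 0.11 without CKO replicate E, 0.48 without D and 0.18 without Control replicate C. A dimmer Fdps probe, above background on 3 CKO and 2 Control arrays, was higher without overlap, at 5.68, 5.83 and 6.00 in CKO, against 5.46, 4.93 and 5.40 in Control.

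Sqle, squalene epoxidase, had the largest difference above 0 among the 21 members. Its signal was 7.18, 7.92 and 7.63 in CKO, against 6.41, 7.26 and 6.86 in Control. Array D lay just below Control B, so the groups overlapped. The means were 7.58 ± 0.37 in CKO and 6.85 ± 0.42 in Control (SD, n = 3 each), a difference of 0.73 (SE 0.29, confidence interval 0.03 to 1.43, limma adjusted p 0.976). Another Sqle probe was above background on CKO array E only. The last was at background.

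Lss, lanosterol synthase, forms lanosterol, the first sterol of the route. It gave 6.85, 6.98 and 6.75 in CKO, against 6.14, 6.48 and 6.52 in Control. The groups did not overlap, and the difference was 0.48 (SE 0.18, confidence interval 0.05 to 0.91, limma adjusted p 0.976). With single arrays left out, this difference ran from 0.36 to 0.55, and it was 0.30 with no background correction. The other Lss probe was below background on all 6 arrays. Idi1, the isomerase before Fdps, was above background on 1 Control array only.

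Among enzymes from lanosterol to cholesterol, 4 of 7 were higher on average and 3 lower. Cyp51, lanosterol demethylase, gave 7.31, 9.46 and 8.33 in CKO, against 8.09, 7.81 and 7.23 in Control. Array E stood highest, while D was the lowest but one of the 6, and the CKO mean of 8.37 ± 1.07 (SD, n = 3) spans the Control mean of 7.71 ± 0.44 (SD, n = 3). The difference of 0.66 (SE 0.54) was 0.11 without CKO replicate E, 1.18 without D and 0.42 without Control replicate C. Sc4mol, now named Msmo1, a sterol methyl oxidase, gave 7.97, 9.36 and 8.68 in CKO, against 7.83, 8.33 and 7.71 in Control. Arrays E and F lay above all Control arrays and D did not (difference 0.71, SE 0.37, and 0.37 without E). Hsd17b7, a sterol ketone reductase, gave 7.54, 8.18 and 7.67 in CKO, against 6.91, 7.87 and 6.46 in Control. Control B lay between the CKO values, so this difference of 0.72 (SE 0.38) also goes with overlapping groups. It was 1.11 without Control replicate B, 0.41 without Control replicate C and 0.16 with array weights.

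Dhcr7, the reductase of the last step on one branch, gave 8.48, 8.66 and 8.66 in CKO, against 8.55, 8.19 and 8.18 in Control (difference 0.29, SE 0.18). Control A lay between the CKO values. The remaining enzymes did not share a direction with these. Ebp, a sterol isomerase, gave 10.15, 10.18 and 10.69 in CKO and 10.70, 10.54 and 10.69 in Control, a difference of -0.30 (SE 0.20). Tm7sf2, a sterol reductase, differed by -0.11 (SE 0.21) and Nsdhl, a sterol dehydrogenase, by -0.03 (SE 0.39). All 3 brighter Nsdhl probes had CKO array D lowest, and their differences ran from -0.03 to 0.20. Sc5d, a sterol desaturase, was above background on 1 CKO and 1 Control array.

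**Figure D3:**
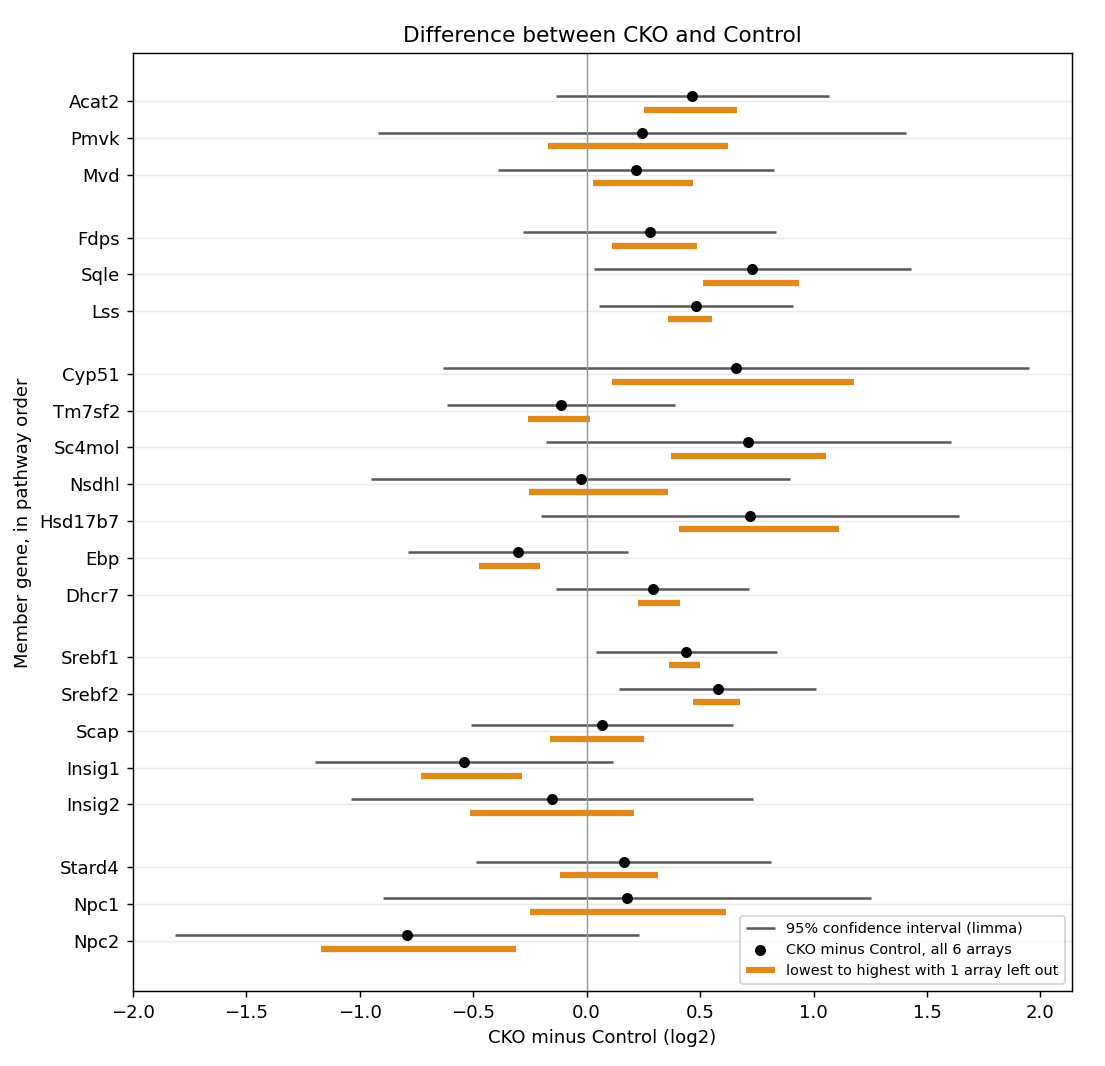
Log2 difference of CKO minus Control (x axis) for each tested member, with its 95% confidence interval from limma (grey) and the span of the difference when 1 array is left out (orange). The intervals of Sqle, Lss, Srebf1 and Srebf2 lie above 0 before adjustment, and the orange span crosses 0 for Pmvk, Tm7sf2, Nsdhl, Scap, Insig2, Stard4 and Npc1.

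Across the 13 tested enzymes, arrays E and F carried the higher values and array D did not. Array E lay above all 3 Control arrays for 9 of 13 enzymes, against 30.0% of all genes. Array F did so for 8 of 13, against 23.0% of all genes, and D for 2 of 13, against 33.2%. Below all 3 Control arrays lay 2 of 13 on D, 3 on E and 0 on F, against 25.5%, 37.7% and 24.1% of all genes. The median deviation of the 13 from their Control means was 0.06 on D, 0.62 on E and 0.36 on F, against 0.04, 0.08 and -0.15 on Control arrays A, B and C. Array E was the highest of all 6 for 9 of the 13, against 22.4% of all genes. Srebf2 and Srebf1 were ordered otherwise within CKO, with D highest and E lowest for both. Array E also stood somewhat apart over all genes, with a mean correlation of 0.936 to the remaining arrays, where those had 0.953 to 0.970. The enzymes' median difference was 0.29 with all arrays, 0.26 without E and 0.49 without D.

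**Figure D4:**
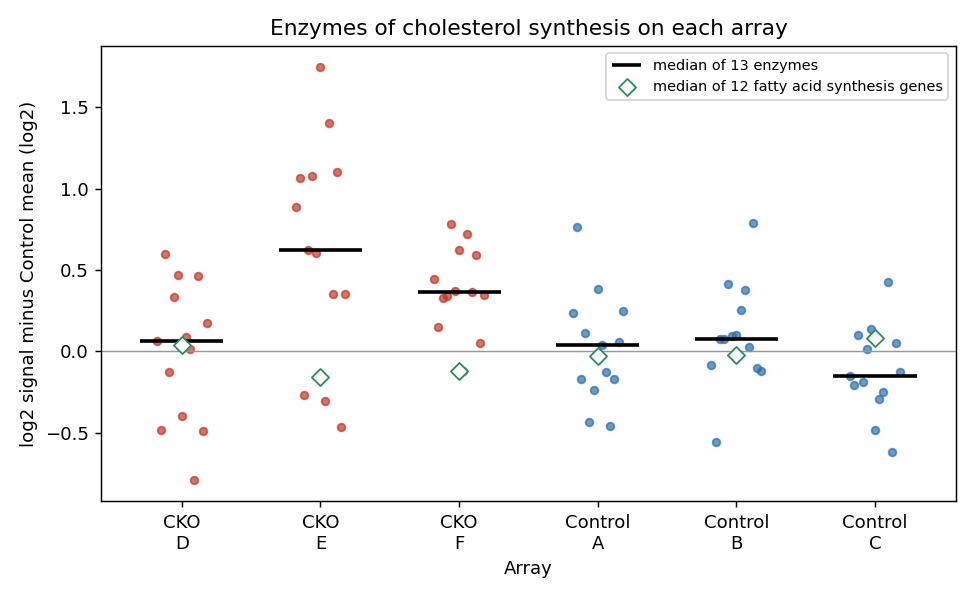
Normalised log2 signal minus the Control mean (y axis, log2) for the 13 tested enzymes of cholesterol synthesis on each array, CKO arrays left and Control arrays right. Each point is 1 enzyme, the black bar their median and the diamond the median of 12 fatty acid synthesis genes. The bars stand at 0.62 on E and 0.36 on F, while the diamonds there stand at -0.16 and -0.12.

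Transport genes were measured by 3 of 5 members. Npc2, the soluble protein that hands sterol to Npc1 in the lysosome, gave 9.55, 8.40 and 10.12 in CKO, against 10.05, 10.04 and 10.36 in Control. Array E was over 1 log2 unit below every Control array, D was below them and F among them. The difference was -0.79 (SE 0.43, confidence interval -1.81 to 0.23, limma adjusted p 0.976), -0.31 without CKO replicate E and -0.18 with array weights. Npc1, the membrane protein that exports sterol from the lysosome, gave 13.03, 13.01 and 12.36 in CKO, against 13.49, 12.62 and 11.75 in Control. All CKO values lay within the Control range (difference 0.18, SE 0.45). Of its 7 probes 3 were above background on all arrays. The second brightest kept the Control order of the brightest, with 9.80, 9.73 and 9.49 in CKO and 10.85, 9.75 and 8.88 in Control. The third gave 8.21, 7.01 and 8.57 in CKO and 7.04, 8.25 and 8.58 in Control, so that Control A was highest on the brightest probe and lowest among Control arrays on this one. Stard4, a cytosolic sterol carrier, gave 9.79, 9.91 and 9.56 in CKO and 9.84, 9.89 and 9.03 in Control, a difference of 0.16 (SE 0.27). Abca1 and Abcg1, which pump sterol out of the cell, were below background on all 6 arrays, so no fold is given.

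Related genes outside the members were counted from lists. Of 13 genes listed as a sterol and isoprenoid branch 11 were tested, 4 were higher, 7 lower and 0 passed, with a median difference of -0.06. Hsd17b12, in this list although it is mainly an enzyme of fatty acid elongation, differed by 0.50 (SE 0.18). Pdss1, a prenyl transferase of ubiquinone synthesis, differed by 0.45 (SE 0.23). These were the 2 of 11 that were higher without overlap, against 5.64% of all genes. For Pdss1 the groups all but touched, at 6.1035 on CKO array F and 6.1021 on Control array C.

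Fatty acid synthesis genes, the other SREBP arm, had 12 tested of 14, with 5 higher, 7 lower and 0 passing, and a median difference of -0.11. Fasn, fatty acid synthase, gave 6.17, 5.96 and 5.83 in CKO, against 5.66, 5.42 and 5.30 in Control. The groups did not overlap (difference 0.53, SE 0.18, limma adjusted p 0.976). Scd2, a desaturase, differed by -0.78 (SE 0.39) and Gpam by -0.52 (SE 0.30). Genes that process SREBPs had 9 tested, with 5 higher, 4 lower and a median of 0.12. Sec24c and Sec23a, of the coat that carries Scap and SREBPs to the Golgi, differed by 0.31 and -0.37.

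Oxysterol receptor and efflux genes had 6 tested of 13, with 3 higher, 3 lower and a median of -0.08. Nr1h3, an oxysterol receptor, differed by 0.80 (SE 0.54), with array E at 6.85 and the other arrays from 4.48 to 5.40, and was above background on 2 CKO arrays and 1 Control array. Arl4c differed by -0.27 and Nr1h2, a related receptor, by 0.19. Lipoprotein and lysosomal sterol genes had 18 tested of 25, with 10 higher, 8 lower and a median of 0.07. Osbpl1a, an oxysterol-binding protein, was higher without overlap, at 7.13, 7.03 and 7.52 in CKO, against 6.59, 6.45 and 5.69 in Control (difference 0.98, SE 0.29, limma adjusted p 0.976). Gramd1b, a sterol transfer protein, differed by -1.06 (SE 0.54) and Osbpl8 by -0.58 (SE 0.39). In these 5 lists 0 genes passed limma's adjusted test, against 0.0168% of all genes, and 4 of 56 tested had an unadjusted p under 0.05, against 4.72% of all genes.

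The targeted gene and the tissue were checked on the same arrays. Bmpr1a gave 8.86, 8.25 and 8.67 in CKO, against 9.26, 9.34 and 8.97 in Control, without overlap; whether the probe lies in the deleted part could not be told. A dimmer Bmpr1a probe overlapped between the groups (difference -0.51), and Pgr, the gene that carries Cre, differed by -0.43. Neither gene passed the adjusted test (limma). Of 8 pan-epithelial markers 7 were tested and Epcam was below background. The summed signal of the 7 was 46927, 38732 and 41511 on CKO arrays D, E and F, against 41028 to 46010 in Control. Luminal markers (7 of 8 tested, Calb1 below background) summed to 24780, 29589 and 22640 on CKO arrays D, E and F, against 22424 to 25382 in Control. Stroma markers (8 of 12 tested, Hand2 and Hoxa10 below background) summed to 6307, 2839 and 1021 on CKO arrays D, E and F, against 2125 to 2821 in Control. Endothelium markers (5 of 7 tested, Tie1 below background) summed to 251, 675 and 148 on D, E and F, against 170 to 243 in Control. Glandular markers (5 of 7 tested) summed to 498, 4420 and 559 on D, E and F, against 517 to 4815 in Control. Of the leukocyte markers 3 of 10 were tested and Ptprc, Cd3e, Itgax, Ncr1 and Mrc1 were among those below background throughout. The leukocyte sum was 214, 488 and 550 on D, E and F, against 276 to 493 in Control. Erythroid markers (3 of 4 tested) summed to 3082, 4773 and 14016 on D, E and F, against 2276 to 9331 in Control. Mesothelium markers (3 of 4 tested) summed to 1392, 269 and 237 on D, E and F, against 393 to 695 in Control. Smooth muscle markers (3 of 7 tested, Myh11, Cnn1 and Tagln below background) summed to 602, 940 and 184 on D, E and F. On Control arrays A, B and C their sums were 2144, 366 and 249. So stroma and mesothelium were highest on D, where Srebf2 and Srebf1 were highest. Luminal and endothelium markers were highest on E, where the enzymes were highest, and endothelium was lowest on F, where the enzymes were high too. The endothelium sum on F was near background for 5 genes, so its place below the Control arrays says little. The pan-epithelial sum was lowest on E. Within CKO, smooth muscle markers were highest on E and lowest on F. Leukocyte markers, like the enzymes, were higher on E and F than on D, and so were glandular and erythroid markers. The luminal markers' median deviation from their Control means was 0.24 on D, 0.86 on E and 0.11 on F, and that of the leukocyte markers was -0.60, 0.52 and 0.63. For glandular markers it was -1.01, 1.26 and -0.27, and for erythroid markers -0.595, -0.15 and 1.47. For pan-epithelial markers it was 0.22, -0.10 and -0.15. The part of these cells in the results was not tested, and fewer cells of a type cannot be told apart from less RNA per cell.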

How the data were processed

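RNA of 6 samples was hybridised to Illumina bead arrays, 1 array a sample on 1 chip, whose positions cannot be told apart from the groups. The deposited scanner tables hold, per the file headers, mean bead intensity per probe (linear, not normalised), its bead standard error, the number of beads and a detection p-value. The authors also deposited processed intensity values, which reach below 0 and have a median of 6.4 on all arrays, with software that no label names. Raw median signal was 79.7 to 87.6, and 16620 to 17536 of the 45281 probes passed a detection p-value under 0.05, with medians of 39 to 42 beads. The number of arrays limits the precision. For the 21 members the bead error was 0.04 to 0.14 on the log2 scale, and the spread within groups, 0.14 to 0.82, was larger for each.

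Background was corrected by normexp with controls inferred from detection p-values (neqc, offset 16, which shrinks differences of dim genes), then came quantile normalisation and log2 (limma 3.58.1, R 4.3.3). Probes above background on 3 or more arrays were kept (17291), and the brightest stood for its gene. Names came from the RefSeq accession or symbol (GRCm38.p6). Where neither matched, for 8960 of all 45281 probes, the deposited symbol was kept, and such symbols can count among the genes. Synonyms were not used where a symbol matched, since Acat2 is also an old name of Soat2. CKO minus Control was tested with lmFit and eBayes, two-sided, adjusted over all 11940 genes. In simulated data the requirement was only that added differences came back at about their size, which does not check the p-values. Named genes are all members, Bmpr1a, Pgr, and from each related list the 3 with the smallest p, some of which are not reported here. The members and lists were chosen with earlier results of these data known, and the motifs afterwards. Alternatives changed the background correction, scaling, filter, probe rule, variance model and array weights, used the deposited values, or left out each array.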

Additional observations from a re-analysis of the deposited data

How the results depend on the processing

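Members called numbered 0 under all 16 alternatives, and their lowest adjusted p was 0.276, for Srebf2 with array weights (limma). The weights were 4.06 for Control replicate B and 2.95 for CKO replicate F, against 0.34 to 0.78 for the other arrays. Results with array weights therefore lean mostly on B and F. The count of members with a difference above 0 (15) and that of enzymes (10 of 13), both added after seeing the data like their alternatives, stayed within 14 to 17 and 9 to 12. The members' median ran from 0.21 to 0.26 under the settings that kept all arrays, and from 0.11 (without CKO replicate E) to 0.36 (without Control replicate A) with single arrays left out. The enzymes' median, 0.29, was 0.43 with the mean of probes and 0.49 without CKO replicate D. Members higher without overlap numbered 3 to 9 with 1 array left out: 5 without Control replicate A (11.5% of all genes there), 6 without B (8.83%) and 9 without CKO replicate D (10.9%), where fewer samples make separation easier. Genes called over the whole table, 2 with all arrays, were 1 when the authors' values, cyclic loess, median scaling, uncorrected background or normexp lacking controls were used. They were 0 to 1 when an array was dropped, 0 with the strict filter or none, and 5 under array weights. Of the 21 members 13 kept their sign throughout, 8 of which moved by over 1.5 times with some array left out. The mean of probes turned Nsdhl to 0.077, Insig2 to 0.10 and Npc1 to -0.00024. Array weights turned Nsdhl to 0.22, Ebp to 0.0063, Stard4 to -0.15 and Npc1 to -0.13. With single arrays left out, Scap ran from -0.16 to 0.26, Pmvk from -0.17 to 0.62, Tm7sf2 from -0.26 to 0.014, Nsdhl from -0.25 to 0.36, Insig2 from -0.51 to 0.21, Stard4 from -0.11 to 0.31 and Npc1 from -0.25 to 0.61. The cause of these changes was not tested. Srebf1 and Insig1 failed the strict filter, so signal over background limits both.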
